A study of Homo sapiens with 6 samples.

Results

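The genes described here are 43 genes that copy DNA and look after the replication fork, measured by RNA-seq in HCC2814, a human lung squamous cell carcinoma (LUSC) line. They were listed by name, with earlier results of these data known, and matched by gene symbol, and all 43 were found among the 17448 genes listed and passed the filter on low counts, which left 12951 genes. The study compared 3 WT samples, which received a non-targeting guide (sgCtrl), with 3 MLST8-KO samples, which received a guide against MLST8 (sgmL8, labelled mLST8 KO), a subunit of the mTOR kinase complexes mTORC1 and mTORC2. Both groups were transduced with lentiCRISPR v2 virus carrying Cas9 and a guide, and were then selected with antibiotic; the study's methods describe no cloning of single cells for this line. The labels call the 3 samples of each group biological replicates from separate experiments.

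Replication starts when the origin recognition complex, CDC6 and CDT1 load the ring-shaped MCM2-7 helicase onto DNA in G1, a step called licensing, which geminin blocks once S phase has begun. CDC45 and the GINS complex then turn the ring into an active helicase, polymerase alpha with its primase lays down primers, polymerases epsilon and delta extend them, and PCNA, loaded by replication factor C (RFC), holds the polymerases on the DNA. Many of these genes are classical targets of E2F transcription factors, which are active as cells pass from G1 into S phase, so in bulk RNA a larger share of cells in S phase and more transcript per cell cannot be told apart.

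Of the 43 genes, 32 were higher in MLST8-KO than in WT cells by edgeR's quasi-likelihood test (Benjamini-Hochberg adjusted p under 0.05), against 16.3% of all genes tested, and 0 were lower, against 15.7%. The 32 make up 74.4% of the genes in the set, and at an unadjusted p under 0.05 there were 36 higher and 0 lower, with DESeq2 also 36 and 0 and with limma 39 and 0. At that unadjusted p many genes passed, in either direction: 5815 of 12951 with edgeR, 5307 of 17408 with DESeq2 and 5660 of 12951 with limma. Every MLST8-KO sample lay above every WT sample in 36 of them (24.8% of all genes tested) and every one below in 0 (24.2%). The median log2 fold change was 0.57, with the middle of the distribution between 0.36 and 0.80, while the median of all genes tested was 0.00. Changes were moderate in size: among the 32 they ran from 1.17-fold for FEN1 to 2.71-fold for MCM5, and 5 genes (MCM5, E2F1, E2F2, E2F8 and CLSPN) exceeded 2-fold. The 11 genes that did not pass the test were ORC6, GINS1, GINS3, RFC3, RFC4, RFC5, RPA1, RPA2, CHEK1, BRCA1 and BRCA2. The p-values measure the spread between these 6 samples.

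**Figure D1:**
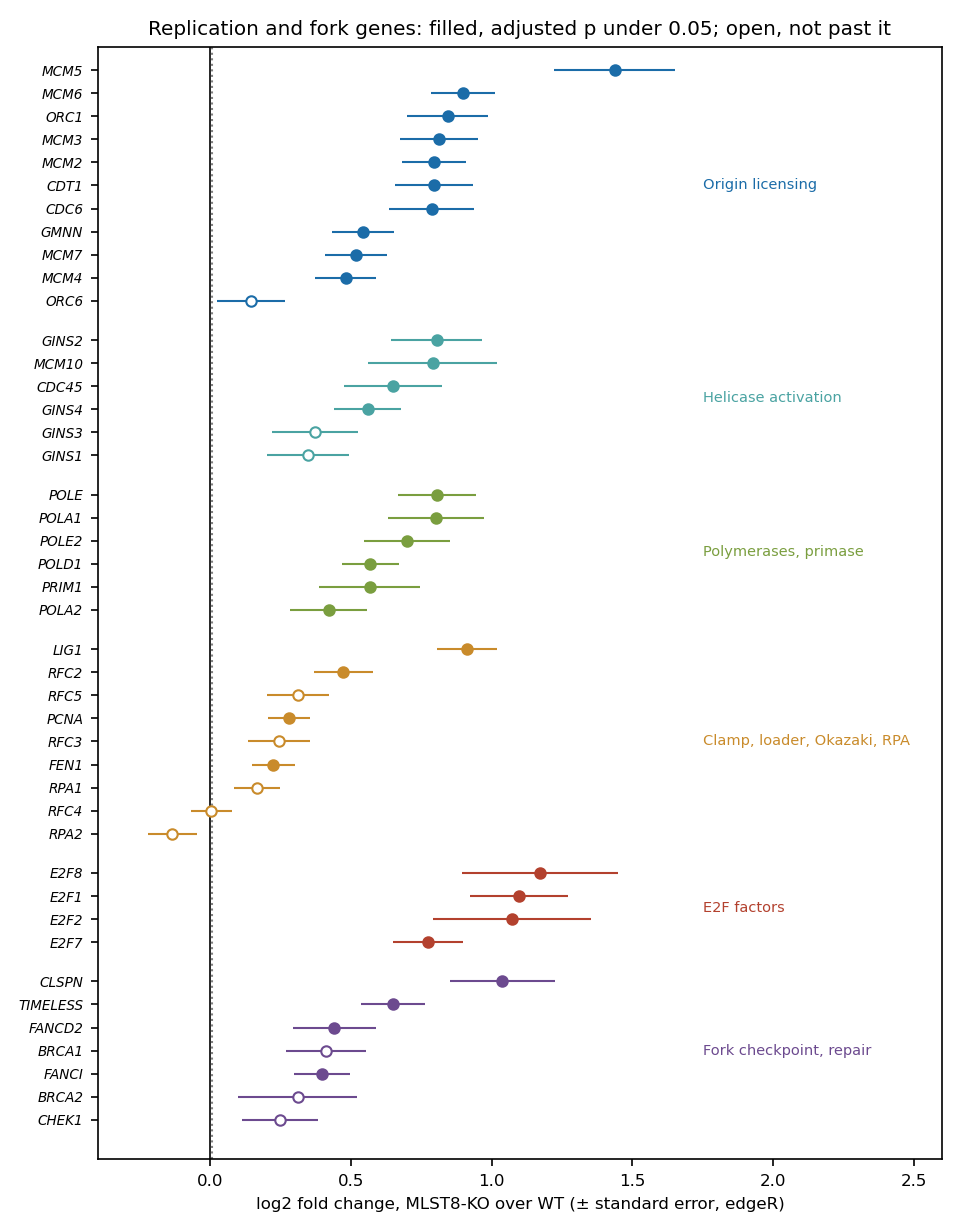
Log2 fold change of MLST8-KO over WT (x axis, with its standard error from edgeR) for the 43 genes, one line per gene in 6 role groups, filled where the adjusted p was under 0.05; the dotted line is the median of all genes tested. MCM5 stands farthest to the right at 1.44, E2F8, E2F1, E2F2 and CLSPN follow, and RFC4 and RPA2 sit at 0.00 and -0.14. E2F7, at 0.77, lies among the other genes.

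MLST8 itself, the targeted gene, had 874, 827 and 842 counts in WT and 396, 629 and 401 in MLST8-KO samples (log2 fold change -0.96, SE 0.15, adjusted p = 0.00339, edgeR), so all 3 MLST8-KO samples lay below all WT samples and replicate 2 kept the most transcript. A guide cuts the gene and need not remove its RNA, so this value does not measure the protein. Estimated counts summed to 14381673 to 15744154 per sample. The 10 squamous markers were all detected, with summed levels of 12200 to 19600 TPM (a level scaled by gene length and depth) in WT and 24800 to 27700 TPM in MLST8-KO samples, and 9 of the 10 passed the test as higher (4 without WT replicate 2, 4 without MLST8-KO replicate 2, 5 if MLST8-KO replicate 1 was left out). Their median log2 fold change was 0.67, against 0.57 for the 43 genes. The part of these markers in the results was not tested. Markers of other cells were low (endothelial 0.53 to 1.13 TPM, leukocyte 0.45 to 1.1 TPM over the 4 of 6 analysed, fibroblast 10.1 to 13.5 TPM), except that the 10 hepatocyte markers summed to 253 TPM in MLST8-KO replicate 1 and to 0.88 to 6.24 TPM in the other 5 samples. Without that library 25 of the 43 replication genes were higher and 0 lower, with a median of 0.59.

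Promoter sequences are given first, because the E2F factors are in the set and their site is short and easily read. The sequences come from RefSeq (GRCh38.p14), 250 bases before to 50 bases after each transcript start, and 37 of the 43 genes matched. GINS4, FANCI, E2F8, MCM5, RPA2 and MCM4 had no entry. The E2F letters searched were TTTGGCGC, TTTCCCGC, TTTCGCGC and TTTGCCGC on both strands, with overlapping matches counted. At least 1 of them stood in a promoter of 21 of the 37 genes (56.8%), against 3.99% of all 27305 genes with a promoter and 6.44% of the tested genes outside the set. The 7 windows below are the 160 bases directly upstream of a RefSeq start, written 5′ to 3′ on the strand of the gene, with the E2F matches in capitals. The first 5 are, for each role group that has one, the gene with the largest change among those with a whole match in the window, PCNA is shown for its high level and RFC4 for its change of 0.00.
MCM6: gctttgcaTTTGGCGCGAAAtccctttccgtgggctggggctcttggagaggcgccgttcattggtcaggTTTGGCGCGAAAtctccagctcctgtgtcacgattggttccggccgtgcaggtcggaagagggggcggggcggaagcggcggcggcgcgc
GINS2: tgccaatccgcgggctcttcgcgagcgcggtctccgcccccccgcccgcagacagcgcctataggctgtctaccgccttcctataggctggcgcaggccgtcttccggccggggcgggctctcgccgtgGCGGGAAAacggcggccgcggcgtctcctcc
POLE: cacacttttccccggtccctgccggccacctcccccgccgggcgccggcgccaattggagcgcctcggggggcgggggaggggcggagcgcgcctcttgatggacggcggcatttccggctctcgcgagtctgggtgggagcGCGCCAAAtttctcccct
LIG1: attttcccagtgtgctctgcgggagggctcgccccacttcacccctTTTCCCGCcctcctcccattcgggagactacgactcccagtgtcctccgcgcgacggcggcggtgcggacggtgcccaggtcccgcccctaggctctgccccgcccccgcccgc
E2F1: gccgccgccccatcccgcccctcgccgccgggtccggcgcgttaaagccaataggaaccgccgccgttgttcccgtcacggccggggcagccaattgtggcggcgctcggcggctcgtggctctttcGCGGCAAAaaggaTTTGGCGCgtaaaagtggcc
PCNA: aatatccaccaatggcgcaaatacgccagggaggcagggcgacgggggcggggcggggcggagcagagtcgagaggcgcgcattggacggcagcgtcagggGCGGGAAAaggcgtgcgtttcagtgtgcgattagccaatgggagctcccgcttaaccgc
RFC4: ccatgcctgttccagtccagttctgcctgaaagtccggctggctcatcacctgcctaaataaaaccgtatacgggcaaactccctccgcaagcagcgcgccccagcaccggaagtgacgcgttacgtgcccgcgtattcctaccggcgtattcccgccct

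The 7 genes all lie on the minus strand. The window of MCM6 is chr2:135876444-135876603 and lies outside the gene in the GENCODE annotation. It holds 4 matches in 2 blocks of the same 12 letters, each block being TTTGGCGC overlapped by GCGCGAAA, the reverse complement of TTTCGCGC. The window of E2F1 is chr20:33686386-33686545, of which 19 bases lie in an annotated exon, and it holds 2 matches close to the start, so the gene for this factor carries the letters of its own family's site. The window of POLE (chr12:132687343-132687502) has 1 match next to the start and overlaps 17 exonic bases of the gene. The window of PCNA (chr20:5126623-5126782) has 1 match and overlaps 4 exonic bases. Transcripts that begin farther upstream are annotated for LIG1, GINS2 and RFC4, so their windows lie inside the gene: the window of LIG1 (chr19:48170345-48170504, 1 match) is exonic throughout, that of GINS2 (chr16:85688955-85689114, 1 match) has 45 exonic and 115 intronic bases, and that of RFC4 (chr3:186806483-186806642, 0 matches) is exonic throughout.

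Over all 37 genes there were 28 E2F matches, from 187 bases upstream to 7 bases downstream of the start, with the median first base at -34. In 5 genes 1 promoter held 2 or more. The genes with a match were CDC6, CDT1, GMNN, MCM2, MCM3, MCM6, MCM7, GINS1, GINS2, GINS3, POLA1, POLA2, POLE, POLE2, PCNA, RFC3, LIG1, E2F1, E2F2, CLSPN and FANCD2. Of these 21, 18 were higher and the median log2 fold change was 0.79 (0.24 to 1.10), while of the 16 without one, 9 were higher and the median was 0.44 (0.00 to 0.84). This difference was not tested. Among tested genes outside the set the letters went with no such difference in the medians: 119 of 678 genes that had them were higher (17.6%, median 0.02), and 1600 of 9846 that lacked them (16.3%, median 0.00). The letters CCAAT or ATTGG, the site of the factor NF-Y, occurred in 23 of the 37 genes (62.2%). They occurred in 39.7% of all genes with a promoter and 43.2% of the tested genes outside the set. The letters TTTGAA or TTCAAA, the CHR element known from genes of G2 and mitosis, occurred in 0 of the 37. Their share was 18.2% of all genes with a promoter and 13.8% of the tested genes outside the set. Median GC content of the promoters was 63.7% for the set, 64.7% for all tested genes and 58.7% for all genes with a promoter. A match is a run of letters and not a measured site.

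**Figure D2:**
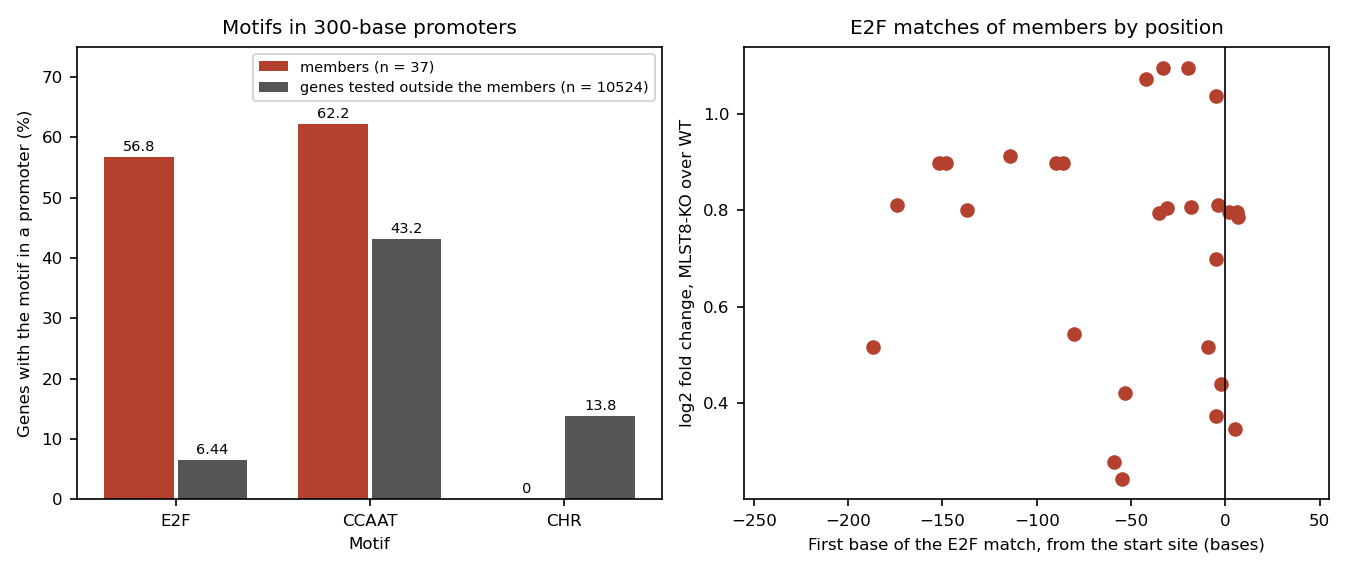
Left, share of genes (y axis, %) with the E2F, CCAAT or CHR letters in a 300-base promoter, for the 37 replication genes with an entry and the 10524 tested genes outside the set; right, log2 fold change (y axis) of the gene against the distance of each E2F match from the transcript start in bases (x axis), one point per match. The E2F letters occur in 56.8% against 6.44% of genes, and the matches of the set lie between -187 and 7.

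Origin licensing genes form the largest role group. Of 11, 10 were higher and 0 lower, and their median log2 fold change was 0.79. The count stayed at 10 when any 1 sample was left out. MCM5, a subunit of the MCM2-7 ring (chr22:35400063-35425430 in GRCh38), had 390, 252 and 161 counts in WT and 772, 851 and 728 in MLST8-KO samples, in the order of replicates 1, 2 and 3 used throughout (log2 fold change 1.44, SE 0.21, adjusted p = 0.00317, edgeR). The lowest MLST8-KO sample lay far above the highest WT sample, and WT samples spread widely among themselves. The other ring subunits also rose: MCM6 by a log2 fold change of 0.90 (adjusted p = 0.00281, edgeR), MCM3 by 0.81 (0.00412), MCM2 by 0.80 (0.00281), MCM7 by 0.52 (0.00827) and MCM4 by 0.48 (0.0100). MCM6 had 556, 470 and 376 counts in WT and 957, 1004 and 874 in MLST8-KO samples. MCM2 had 846, 609 and 601 counts in WT and 1241, 1406 and 1229 in MLST8-KO samples. In both, as in MCM3, MCM4 and MCM7, the groups did not overlap.

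The factors that load the ring rose with it. CDC6, the ATPase that joins the origin recognition complex, had 871, 668 and 485 counts in WT and 1273, 1362 and 1145 in MLST8-KO samples (log2 fold change 0.79, SE 0.15, adjusted p = 0.00582, edgeR). CDT1, which brings the ring to the origin, had 413, 365 and 258 counts in WT and 656, 601 and 689 in MLST8-KO samples (log2 fold change 0.79, SE 0.14, adjusted p = 0.00424, edgeR). GMNN encodes geminin, the inhibitor of CDT1, and had 402, 304 and 310 counts in WT and 559, 528 and 520 in MLST8-KO samples (log2 fold change 0.54, SE 0.11, adjusted p = 0.00705, edgeR), so the inhibitor rose together with the loader. The ratio of CDT1 to GMNN in TPM was 0.44 ± 0.086 in WT and 0.52 ± 0.033 in MLST8-KO cells (mean ± SD of 3 samples each; exact permutation p = 0.3, two-sided), with MLST8-KO replicates 1 and 2 below WT replicate 2. Of the origin recognition complex, ORC1 passed the test and ORC6 did not, and the difference between them was not tested. ORC1, its cell-cycle-regulated large subunit, had 148, 133 and 114 counts in WT and 232, 309 and 231 in MLST8-KO samples (log2 fold change 0.84, SE 0.14, adjusted p = 0.00407, edgeR), with no overlap. ORC6, its smallest subunit, had 353, 332 and 257 counts in WT and 347, 427 and 357 in MLST8-KO samples, the groups overlapped, and the gene did not pass the test (log2 fold change 0.14, SE 0.12, adjusted p = 0.378, edgeR).

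Of the 6 genes of helicase activation 4 were higher and 0 lower, with a median of 0.60, and 2 were higher without WT replicate 2 or MLST8-KO replicate 2. GINS2, a subunit of the 4-part GINS complex, had 189, 189 and 119 counts in WT and 272, 333 and 338 in MLST8-KO samples (log2 fold change 0.81, SE 0.16, adjusted p = 0.00678, edgeR), and no MLST8-KO sample fell to the WT level. GINS4 had 150, 153 and 131 counts in WT and 226, 254 and 216 in MLST8-KO samples (log2 fold change 0.56, adjusted p = 0.00853, edgeR), also without overlap. The remaining subunits did not pass the test. GINS1 had 324, 321 and 218 counts in WT and 354, 465 and 374 in MLST8-KO samples (log2 fold change 0.35, SE 0.14, adjusted p = 0.0889, edgeR), with all MLST8-KO samples above WT by a narrow margin. GINS3 had 349, 289 and 207 counts in WT and 343, 433 and 411 in MLST8-KO samples (log2 fold change 0.37, SE 0.15, adjusted p = 0.0847, edgeR), where MLST8-KO replicate 1 lay below WT replicate 1. Without WT replicate 1 both passed (GINS1 0.41, adjusted p = 0.0479; GINS3 0.52, adjusted p = 0.0118, edgeR).

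CDC45, the partner of GINS in the active helicase, had 231, 183 and 135 counts in WT and 270, 379 and 287 in MLST8-KO samples (log2 fold change 0.65, SE 0.17, adjusted p = 0.0190, edgeR), and the groups did not overlap. MCM10, which helps to start the helicase, had 356, 300 and 145 counts in WT and 448, 573 and 477 in MLST8-KO samples (log2 fold change 0.79, SE 0.23, adjusted p = 0.0265, edgeR). Its WT replicate 3, with 145 counts, stood well under the other WT samples, and without it the log2 fold change was 0.51. CDC45 lost its call without WT replicate 2 (adjusted p = 0.0659, edgeR) or MLST8-KO replicate 2 (0.0814). MCM10 lost its call without WT replicate 2 (0.0575) or MLST8-KO replicate 1 (0.0596), 2 (0.101) or 3 (0.0700), and kept it without WT replicate 3. Calls over all genes moved as well when 1 sample was left out. Against 2116 higher genes with all samples there were 971 without WT replicate 2, 979 without MLST8-KO replicate 1 and 2692 without WT replicate 1.

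All 6 polymerase and primase genes of the set were higher, with a median of 0.63. POLE, the catalytic subunit of the leading-strand polymerase epsilon, had 547, 459 and 327 counts in WT and 767, 906 and 854 in MLST8-KO samples (log2 fold change 0.81, SE 0.14, adjusted p = 0.00412, edgeR). POLE2, the second subunit of the same enzyme, had 71, 71 and 62 counts in WT and 107, 136 and 118 in MLST8-KO samples (log2 fold change 0.70, adjusted p = 0.00931, edgeR). Neither showed any overlap between the groups. POLA1, the catalytic subunit of polymerase alpha, had 654, 501 and 347 counts in WT and 900, 1104 and 831 in MLST8-KO samples (log2 fold change 0.80, adjusted p = 0.00840, edgeR). POLD1, the catalytic subunit of the lagging-strand polymerase delta, had 412, 337 and 312 counts in WT and 541, 580 and 588 in MLST8-KO samples (log2 fold change 0.57, adjusted p = 0.00470, edgeR). In POLD1 the 3 MLST8-KO samples lay close together, well above WT.

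The changes in POLA2 and PRIM1 were less certain. PRIM1, the catalytic primase subunit, had 125, 97 and 77 counts in WT and 134, 186 and 161 in MLST8-KO samples (log2 fold change 0.57, SE 0.18, adjusted p = 0.0357, edgeR). POLA2, the regulatory subunit of polymerase alpha, had 277, 204 and 204 counts in WT and 338, 374 and 285 in MLST8-KO samples (log2 fold change 0.42, SE 0.14, adjusted p = 0.0391, edgeR), and was the 1 gene of the 32 whose groups overlapped once counts were scaled by library size, through MLST8-KO replicate 3 and WT replicate 1. PRIM1 lost its call without WT replicate 2 (adjusted p = 0.112, edgeR), WT replicate 3 (0.0875), MLST8-KO replicate 2 (0.127) or MLST8-KO replicate 3 (0.0904). POLA2 lost it without WT replicate 2 (adjusted p = 0.154, edgeR), WT replicate 3 (0.0738), MLST8-KO replicate 1 (0.122) or MLST8-KO replicate 2 (0.136).

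Clamp, clamp loader, Okazaki fragment and single-strand binding genes had the lowest median of the role groups. Of 9, 4 were higher and 0 lower, and the median was 0.24. Without WT replicate 2 or MLST8-KO replicate 1 there were 2 higher. LIG1, the ligase that seals Okazaki fragments, was the exception in size with 213, 216 and 170 counts in WT and 412, 424 and 390 in MLST8-KO samples (log2 fold change 0.91, SE 0.11, adjusted p = 0.00281, edgeR). Every MLST8-KO sample had well over the highest WT count. FEN1, the nuclease that trims the flaps before LIG1 acts, had 844, 774 and 723 counts in WT and 996, 998 and 979 in MLST8-KO samples (log2 fold change 0.22, SE 0.08, adjusted p = 0.0455, edgeR). The groups did not overlap, but the step was small, and FEN1 lost its call with DESeq2 (adjusted p = 0.0862) and in edgeR without WT replicate 2 (0.156), WT replicate 3 (0.103), or MLST8-KO replicate 1 (0.154), 2 (0.0839) or 3 (0.0846).

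PCNA, the sliding clamp, had the highest level of the set per gene length, 148 ± 7.67 TPM in WT and 194 ± 5.78 TPM in MLST8-KO cells (mean ± SD of 3 samples each). It had 1470, 1446 and 1299 counts in WT and 1883, 1843 and 1834 in MLST8-KO samples (log2 fold change 0.28, SE 0.07, adjusted p = 0.0189, edgeR), so all MLST8-KO samples were above WT by a modest step. The call was lost without WT replicate 2 (adjusted p = 0.0667, edgeR) or MLST8-KO replicate 1 (0.0853). Of the small subunits of RFC, the clamp loader, RFC2 alone passed the test, with 315, 277 and 266 counts in WT and 400, 491 and 405 in MLST8-KO samples (log2 fold change 0.47, SE 0.11, adjusted p = 0.00974, edgeR). RFC5 had 490, 460 and 348 counts in WT and 599, 568 and 579 in MLST8-KO samples (log2 fold change 0.31, SE 0.11, adjusted p = 0.0544, edgeR), and it passed without WT replicate 1 (adjusted p = 0.0211). RFC3 had 461, 465 and 344 counts in WT and 537, 588 and 509 in MLST8-KO samples (log2 fold change 0.24, SE 0.11, adjusted p = 0.113, edgeR). In RFC3 and RFC5 all MLST8-KO samples lay above WT even so.

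RFC4, another small subunit, had 1292, 1304 and 1241 counts in WT and 1398, 1446 and 1344 in MLST8-KO samples (log2 fold change 0.00, SE 0.07, adjusted p = 0.978, edgeR), and after scaling by library size its 6 samples were mixed. Its level per length was the second highest of the set in WT and the third in MLST8-KO cells, at 126 ± 2.83 TPM in WT and 136 ± 6.75 TPM in MLST8-KO cells (mean ± SD of 3 samples each). TPM were not rescaled with TMM, and on that scale (log2(TPM + 0.1)) the median of all genes lay 0.10 higher in MLST8-KO cells. The ratio of RFC4 to the mean of RFC2, RFC3 and RFC5 in TPM was 4.97, 5.24 and 6.24 in WT and 4.38, 4.18 and 4.37 in MLST8-KO samples, with no overlap (exact permutation p = 0.1, two-sided, the smallest possible with 3 against 3). RPA1 and RPA2 are the large and middle subunits of the protein that coats single-stranded DNA. RPA1 had 1567, 1421 and 1306 counts in WT and 1785, 1852 and 1601 in MLST8-KO samples (log2 fold change 0.17, SE 0.08, adjusted p = 0.145, edgeR). RPA2 had 729, 637 and 706 counts in WT and 651, 720 and 685 in MLST8-KO samples and was the only gene of the 43 with a negative log2 fold change (log2 fold change -0.14, SE 0.09, adjusted p = 0.246, edgeR). The groups overlapped in both. The RPA1 to RPA2 ratio in TPM was 0.994, 1.04 and 0.883 in WT and 1.31, 1.19 and 1.09 in MLST8-KO samples, which did not overlap (exact permutation p = 0.1, two-sided).

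The 4 E2F factors of the set were all higher, with the largest median of the role groups, 1.08. E2F1 and E2F2 are activators of S phase genes. E2F1 had 287, 194 and 152 counts in WT and 501, 531 and 434 in MLST8-KO samples (log2 fold change 1.10, SE 0.17, adjusted p = 0.00355, edgeR). E2F2 had 116, 67 and 37 counts in WT and 164, 173 and 163 in MLST8-KO samples (log2 fold change 1.07, SE 0.28, adjusted p = 0.0179, edgeR). Its 3 MLST8-KO samples lay close together, while WT samples ranged from 37 to 116 counts. E2F7 and E2F8 are atypical members of the family that repress the same genes. E2F7 had 482, 430 and 360 counts in WT and 727, 952 and 689 in MLST8-KO samples (log2 fold change 0.77, SE 0.12, adjusted p = 0.00362, edgeR). E2F8 had 73, 54 and 26 counts in WT and 123, 148 and 103 in MLST8-KO samples (log2 fold change 1.17, SE 0.28, adjusted p = 0.0120, edgeR). No MLST8-KO sample overlapped with WT in any of the 4, so activators and repressors rose together.

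E2F2 and E2F8 are, with BRCA2, the genes of the set with the lowest levels per length: E2F2 had 2.29 ± 1.26 TPM in WT and 4.95 ± 0.139 TPM in MLST8-KO cells and E2F8 1.79 ± 0.820 TPM in WT and 4.40 ± 0.791 TPM in MLST8-KO cells (mean ± SD of 3 samples each). E2F2 lost its call without WT replicate 2 (adjusted p = 0.0718, edgeR) or MLST8-KO replicate 1 (0.0564), 2 (0.0613) or 3 (0.0541), and E2F8 without MLST8-KO replicate 2 (adjusted p = 0.0560, edgeR), where 2 of the 4 factors passed. The summed level of E2F1 and E2F2 over that of E2F7 and E2F8 in TPM was 1.29, 1.0 and 0.932 in WT and 1.39, 1.14 and 1.35 in MLST8-KO samples, with overlap (exact permutation p = 0.2, two-sided).

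Of the 7 fork checkpoint and fork repair genes 4 were higher and 0 lower, with a median of 0.41, and 2 were higher without MLST8-KO replicate 1 or 2. CLSPN encodes claspin, the adaptor through which ATR activates CHK1 at stalled forks, and had 264, 169 and 129 counts in WT and 395, 426 and 428 in MLST8-KO samples (log2 fold change 1.04, SE 0.19, adjusted p = 0.00482, edgeR). The MLST8-KO samples lay close together, far above the highest WT sample. TIMELESS, a fork protection factor, had 402, 399 and 299 counts in WT and 602, 698 and 576 in MLST8-KO samples (log2 fold change 0.65, SE 0.11, adjusted p = 0.00433, edgeR), again with no overlap. CHEK1, the gene for CHK1 itself, had 329, 313 and 224 counts in WT and 346, 426 and 345 in MLST8-KO samples and did not pass the test (log2 fold change 0.25, SE 0.13, adjusted p = 0.179, edgeR), although all MLST8-KO samples were above WT after scaling.

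FANCI and FANCD2, the paired proteins that mark DNA crosslinks in the Fanconi anaemia pathway, both rose. FANCI had 1567, 1495 and 1170 counts in WT and 1953, 2220 and 1881 in MLST8-KO samples (log2 fold change 0.40, SE 0.10, adjusted p = 0.0144, edgeR). FANCD2 had 339, 299 and 236 counts in WT and 419, 519 and 352 in MLST8-KO samples (log2 fold change 0.44, SE 0.15, adjusted p = 0.0429, edgeR). The groups did not overlap in either after scaling, but the margin was narrow in FANCD2. FANCI lost its call without MLST8-KO replicate 1 (adjusted p = 0.0506, edgeR) or 2 (0.0621), and FANCD2 without WT replicate 2 (0.104) or 3 (0.0890) or MLST8-KO replicate 1 (0.108) or 2 (0.165).

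The recombination genes BRCA1 and BRCA2 did not pass the test. BRCA1 had 276, 241 and 211 counts in WT and 333, 431 and 289 in MLST8-KO samples (log2 fold change 0.41, SE 0.14, adjusted p = 0.0502, edgeR). It came closest to the threshold of the 11, and its groups did not overlap after scaling, by a narrow margin. BRCA1 passed without WT replicate 1 (adjusted p = 0.0247, edgeR) or MLST8-KO replicate 3 (0.0330). BRCA2, which acts in homologous recombination, had 82, 87 and 89 counts in WT and 100, 160 and 90 in MLST8-KO samples (log2 fold change 0.31, SE 0.21, adjusted p = 0.277, edgeR). MLST8-KO replicate 2 stood apart there, while the other MLST8-KO samples were near WT. BRCA2 had the lowest level of the set at 0.943 ± 0.0643 TPM in WT and 1.26 ± 0.412 TPM in MLST8-KO cells (mean ± SD of 3 samples each).

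Subunits of one complex can be set side by side per gene length. In the MCM2-7 ring, whose subunits are present once each in the complex, WT means in TPM ran from 13.7 for MCM5 and 15.8 for MCM6 through 20.1 for MCM3, 25.2 for MCM2 and 35.2 for MCM4 to 93.1 for MCM7. In MLST8-KO cells they ran from 31.7 for MCM6 through 37.99 for MCM3, 39.9 for MCM5, 47.2 for MCM2 and 52.9 for MCM4 to 144.5 for MCM7. MCM5 thus moved from the lowest place to the fourth. It made up 7.95%, 6.62% and 5.06% of the summed TPM of the 6 subunits in WT and 11.6%, 11.5% and 10.6% in MLST8-KO samples, which did not overlap (6.54 ± 1.44% and 11.2 ± 0.53%, exact permutation p = 0.1, two-sided). Neighbours such as MCM5 and MCM6 in WT cells, or MCM3 and MCM5 in MLST8-KO cells, differed by less than the SD of MCM5. Of the 5 ratios computed over the complexes and factors, Benjamini-Hochberg adjustment left none under 0.167, and a p of 0.1 is the smallest that 3 against 3 samples allow.

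Not every subunit followed. POLE and POLE2 rose while POLE3, a histone-fold subunit of the same polymerase that is not in the set, fell (3089, 3847 and 4663 counts in WT and 2595, 2933 and 2930 in MLST8-KO samples; log2 fold change -0.59, SE 0.15, adjusted p = 0.0154, edgeR). POLE3 is far more abundant than POLE, at 228 ± 51.6 TPM in WT and 163 ± 8.82 TPM in MLST8-KO cells (mean ± SD of 3 samples each) against 7.18 ± 1.51 TPM in WT and 13.1 ± 0.926 TPM in MLST8-KO cells. The call of POLE3 was lost without WT replicate 2 (adjusted p = 0.0502, edgeR) or MLST8-KO replicate 1 (0.0651) or 2 (0.0567). Beside POLD1, POLD2 rose (0.38, adjusted p = 0.0403, edgeR), a call lost without any 1 sample other than WT replicate 1, and beside ORC1, ORC4 rose (0.49, adjusted p = 0.00702). The remaining subunits outside the set did not pass the test: RFC1 (-0.01), POLE4 (0.01), RPA3 (0.11), PRIM2 (0.35), POLD3 (0.28), POLD4 (-0.17), ORC2 (0.08), ORC3 (-0.09) and ORC5 (-0.05).

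**Figure D3:**
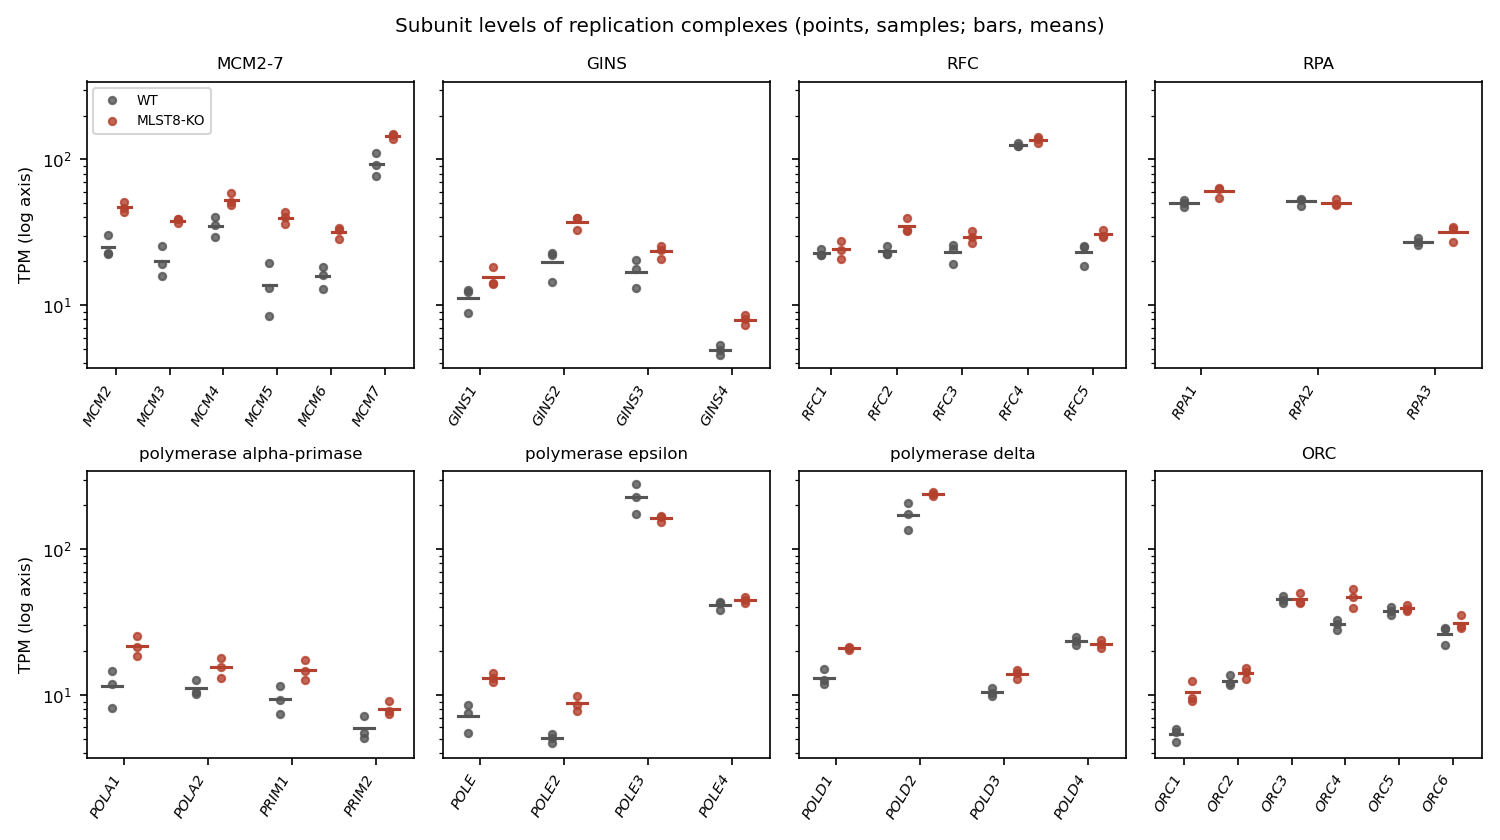
Levels of the subunits of 8 replication complexes in TPM (y axis, log scale), with 1 point per sample (grey, WT; red, MLST8-KO) and a bar at the mean of 3 samples. MCM5 rises from 13.7 to 39.9 TPM, RFC4 and RPA2 sit at nearly the same level in both groups, and POLE3 is lower in MLST8-KO samples.

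Per sample, the 43 genes moved together within groups as well as between them. The median of their log2 CPM (counts scaled to library size with TMM) relative to the WT mean was 0.17, 0.02 and -0.22 in WT and 0.52, 0.69 and 0.57 in MLST8-KO samples. Summed over the set, levels were 1157, 1062 and 921.7 TPM in WT and 1514, 1615 and 1445 TPM in MLST8-KO samples, a 1.46-fold higher mean on the TPM scale with no overlap (exact permutation p = 0.1, two-sided, the smallest possible). WT replicate 3 was the lowest WT sample in 36 genes of the set (83.7%, against 39.2% of all genes tested), and WT replicate 1 the highest WT sample in 32 (74.4% against 38.3%). MLST8-KO replicate 2, the sample with the most MLST8 transcript of its group, was the highest MLST8-KO sample in 30 (69.8% against 36.5%). The spread among WT samples was therefore largely shared by the genes, and they are not independent of each other. This order was not particular to the set. The squamous markers summed to 19600, 15200 and 12200 TPM in WT replicates 1, 2 and 3. Of the genes beside the set, PLK1 (602, 433 and 349 counts) and RRM2 (1698, 1479 and 996) also followed it. AURKA (654, 590 and 605) and DTYMK (190, 185 and 192) did not. Without WT replicate 3 there were 28 higher genes with a median of 0.51, and without WT replicate 1 there were 36 with a median of 0.66.

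**Figure D4:**
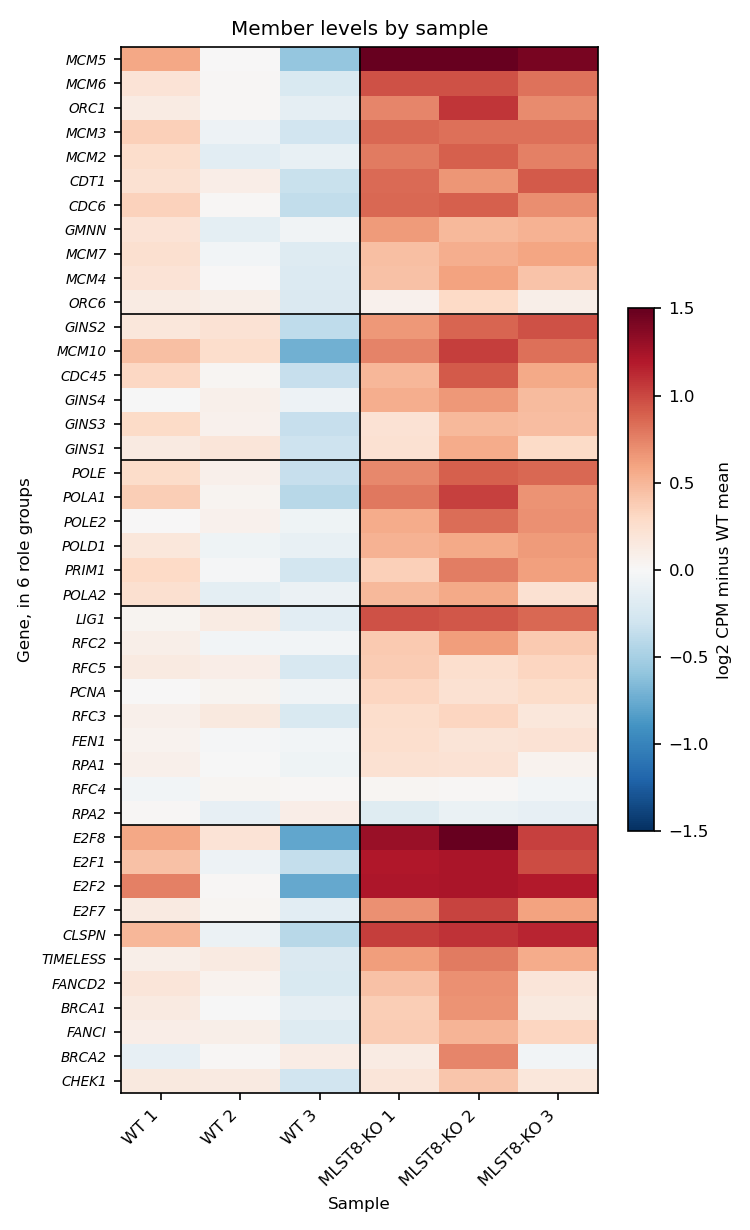
Log2 CPM minus the WT mean (colour) of the 43 genes (y axis, in 6 role groups split by lines) in the 6 samples (x axis). WT replicate 3 is the bluest column, and the MLST8-KO columns are red for nearly every gene except RFC4, RPA2 and, less clearly, ORC6 and BRCA2.

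Within the set, genes with low WT levels tended to rise more than those with high levels. Across the 43 genes Spearman's rho between the mean WT level in TPM and the signed log2 fold change was -0.512. Across all genes tested it was -0.333, which does not give the size of change, since 2116 genes were higher and 2030 lower. Genes that spread more among the WT samples also tended to rise more. Between the range of log2 CPM within WT and the log2 fold change, rho was 0.631 across the 43 genes. These are descriptions across genes, which share the same 6 libraries, and the WT values enter all of these measures. At the top of the scale, MCM7, with 2211, 1740 and 1495 counts in WT and 2617, 2912 and 2922 in MLST8-KO samples, had 93.1 ± 16.7 TPM in WT and 144.5 ± 6.61 TPM in MLST8-KO cells (mean ± SD of 3 samples each), beside PCNA and RFC4. At the bottom, beside BRCA2, E2F8 and E2F2, stood CLSPN with 3.86 ± 1.37 TPM in WT and 8.73 ± 0.146 TPM in MLST8-KO cells.

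Genes that work beside the set were read from further lists, of which 131 genes in 6 lists concern replication, repair and the G1/S switch: 44 were higher (33.6%) and 7 lower, with a median log2 fold change of 0.22. Over the 6 lists there were 20 higher genes without MLST8-KO replicate 1, 21 without MLST8-KO replicate 2 and 21 without WT replicate 2, with 2, 3 and 3 lower. Genes for chromatin assembly and DNA methylation at the fork were higher in 7 of 9 cases (77.8%) and lower in 0, with a median of 0.65. UHRF1, which guides maintenance methylation to new DNA, had 196, 130 and 78 counts in WT and 399, 397 and 368 in MLST8-KO samples (log2 fold change 1.41, SE 0.22, adjusted p = 0.00352, edgeR), and its groups lay far apart. CHAF1B (0.95), HELLS (0.78) and ASF1B (0.72) also rose, while ASF1A (0.34) and SLBP (-0.11) did not pass. Of 7 genes that supply deoxynucleotides 5 were higher and 0 lower with a median of 0.67, led by RRM2, the regulated subunit of ribonucleotide reductase (0.93, adjusted p = 0.00316, edgeR), TYMS (0.84) and TK1 (0.82).

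The other licensing and firing genes changed less: 3 of 15 were higher and 0 lower, with a median of 0.18. The 3 were TICRR, an origin firing factor (1.01, adjusted p = 0.00526, edgeR), WDHD1 (0.51) and ORC4, and the values nearest to 0 belonged to ORC5 (-0.05) and MCM9 (-0.08). Of 18 other fork machinery genes 3 were higher (16.7%, near the 16.3% of all genes tested) and 2 lower, with a median of 0.12. The higher genes were DSCC1 (0.44), RNASEH2B (0.44) and POLD2, and the lower ones POLE3 and TOP1 (-0.39). The higher calls fell to 0 without WT replicate 2 or without MLST8-KO replicate 1, 2 or 3. Of 36 other checkpoint, homologous recombination and Fanconi genes 17 were higher and 2 lower, with a median of 0.32, and these counts fell to 7 and 0 without MLST8-KO replicate 1, 8 and 0 without WT replicate 2, 9 and 0 without MLST8-KO replicate 2, and 11 and 0 without MLST8-KO replicate 3. RAD54L (0.98), BARD1, the partner of BRCA1 (0.91), and FANCE (0.87) rose most. The lower pair was RAD17 (-0.30) and HUS1 (-0.27), which act in the loading and make-up of the checkpoint clamp, and both lost their calls with limma (adjusted p = 0.0806 for HUS1 and 0.0913 for RAD17 on log2(TPM + 0.1)) and upper quartile scaling (0.0586 and 0.0587). PALB2 (0.00) was nearest to 0.

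Of 18 other E2F, pocket protein and G1/S genes 6 were higher and 1 lower, with a median of 0.23. MYBL2 (0.93), CCNE2, a cyclin E (0.75), RBL1, the pocket protein p107 (0.66), and LIN9 (0.53) rose, and E2F6, a repressor of the family, fell (-0.44, adjusted p = 0.00745, edgeR). Without WT replicate 2 or MLST8-KO replicate 2 there was 1 higher gene in this list. Leaving out MLST8-KO replicate 1 gave 2. Repair pathways that do not act at the fork were nearer to the background: of 35 excision, mismatch and end-joining genes 8 were higher (22.9%) and 2 lower, with a median of 0.16. XPC (0.60), XRCC4 (0.59) and MUTYH (0.56) led the rises, and ERCC4 (-0.52) and LIG4 (-0.37) fell. LIG4 lost its call with DESeq2 (adjusted p = 0.0507), a minimum of 10 counts (0.0519), upper quartile scaling (0.0761) and limma (0.190 and 0.195), and in edgeR without any 1 sample other than WT replicate 1 (0.0756 to 0.138). Without MLST8-KO replicate 1 there were 2 higher genes in this list, and without WT replicate 2, WT replicate 3 or MLST8-KO replicate 2 there were 4, 5 and 4. Mitosis genes were likewise mostly higher, with 18 of 19 higher, 0 lower and a median of 0.51, led by KIF20A (1.04) and PLK1 (0.98). The count was 10 without MLST8-KO replicate 2 and 12 without WT replicate 2 or MLST8-KO replicate 1.

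**Figure D5:**
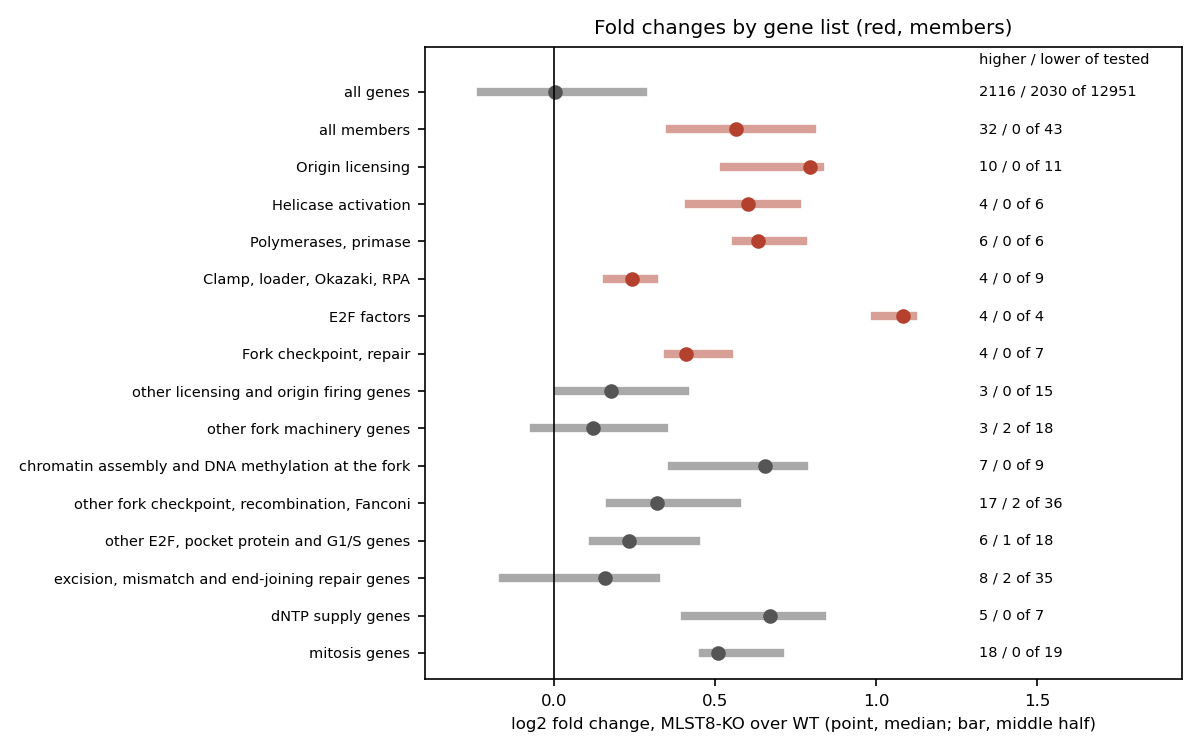
Median log2 fold change of MLST8-KO over WT (point) with the interquartile range (bar) for all genes tested, the 43 replication genes and their 6 role groups (red) and the lists beside them (grey), with the numbers higher and lower at the right. E2F factors lie farthest right at 1.08, and the clamp group at 0.24 is the lowest of the red points.

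Whether reads were counted by strand is not given in the sources used here. In 7 of the 43 (MCM2, MCM7, GINS2, PRIM1, RFC4, FEN1 and FANCI) some exonic bases are shared with another gene in the table, at most 8.83% (PRIM1 with HSD17B6), so a small part of their counts may belong to the neighbour. No gene shared 10% or more.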

How the data were processed

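Libraries were made from polyA-selected RNA and sequenced by BGI. HISAT, Bowtie2 and GRCh38.p12 are named in the submitters' processing notes. The authors deposited estimated counts per gene, which are not normalised, together with FPKM and TPM, scaled by gene length and sequencing depth, and FPKM were not used further here. A further table of the authors holds the results of their own comparison (log2 fold changes with p-values and adjusted values) and was not used. Of 17448 genes, 25 symbols turned into dates were restored through Entrez identifiers. The planned test takes whole counts, and since 12.4% of the values were not whole (tolerance 1e-06) they were rounded.

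MLST8-KO and WT samples (3 each) were compared with edgeR 4.0.16 in R 4.3.3 (TMM, filterByExpr by group, glmQLFit and glmQLFTest, no block), with Benjamini-Hochberg adjustment over 12951 genes and a threshold of 0.05. The standard error was taken as the absolute log2 fold change over the square root of F. No sample was merged with another, since replicates differed by more than sampling noise (chi-square 6.77 to 26.2 per gene). In the shallowest library the limit set by a count of 0 (3 counts) was 0.209 CPM, for counting error only. The fit was tested on simulated data over 12951 genes with a log2 fold change of 1 in 200 of them. There 91.5% were recovered and 5.18% of calls were unchanged genes. Far fewer genes changed there than were called in the data, and noise was drawn separately for each gene. These shares therefore need not hold for the calls given above.

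As alternatives, DESeq2 1.42.0 and limma 3.58.1 (on log2 TPM with 1 or 0.1 added) replaced edgeR, the scaling was changed to DESeq2's size factors or to the upper quartile, the filter was dropped or set to a minimum of 10 counts per sample, the replicate number was added as a block, and each sample was left out in turn. Ratios were tested by exact permutation (scipy 1.17.1). The members and lists were chosen with earlier results of these data known. All 43 genes are named, with counts per sample for the largest and smallest change of each role group, those not past the threshold and the highest and lowest levels, and for further members by role. Of each other list up to 4 called genes with the largest and 2 with the smallest change are given, and further subunits were named for their complex. Gene coordinates are those of GENCODE 29 (GRCh38). Some items are not reported here.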

Additional observations from a re-analysis of the deposited data

How the results depend on the processing

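Of the 43 genes, 0 were lower in any of the 14 alternatives, and the number higher was 31 with DESeq2, 32 with DESeq2's size factors or no filter, 33 with at least 10 counts, and 34 with upper quartile scaling or limma. With 1 sample left out it ranged from 23 to 36, and the median log2 fold change from 0.51 to 0.66. Of the 32 higher genes, 22 passed in every alternative and 10 lost their call in at least 1. Of the 11 others, 4 passed in at least 1 alternative. RFC4, at 0.00, turned sign with DESeq2 (-0.0026), DESeq2's size factors (-0.0018), no filter (-0.0016), and without WT replicate 1 (-0.019), MLST8-KO replicate 1 (-0.010) or MLST8-KO replicate 2 (-0.0034), each within its standard error, and with 1 sample left out it ranged from -0.019 to 0.023.

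Over all genes, 2116 were higher and 2030 lower. With limma, 1134 (TPM + 1) and 1132 (TPM + 0.1) were lower, and higher genes made up 71.0% and 70.9% of calls instead of 51.0%, as the median of all genes moved to 0.09 and 0.10. Upper quartile scaling gave 62.0%, with a median of 0.06. The medians of the 43 genes on these scales were 0.64, 0.68 and 0.62. With 1 sample left out, 971 to 2692 genes were higher and 850 to 2651 lower. The cause of these moves was not tested.

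With the replicate number as a block, 33 of the 43 genes were higher and 0 lower (median 0.57; 2261 and 2157 over all genes). FEN1 lost its call, and BRCA1 and RFC5 gained one. Same-numbered samples correlated in their deviations from the group means at 0.105, 0.057 and 0.140, so the numbers were not taken to pair the samples. Every sample correlated best with its own number, which is a hint from the data and not from the design.

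The lowest counts of the set were those of E2F2, E2F8, BRCA2 and POLE2. With 3 samples a group an exact permutation test cannot go below 0.1.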
